A study of Mus musculus with 4 samples.

Results

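The small GTPases of the Rab, Arf and Arl families were examined as targets of the RNA-binding protein MSI2 in mouse intestinal epithelium. Members were all protein-coding genes whose symbol is Rab, Arf or Arl followed by a number and at most a letter and a further digit. The RefSeq table of GRCm38.p6 (mm10) held 85 such genes among 21900 placed protein-coding genes, namely 59 Rab, 6 Arf and 20 Arl genes. A deposited peak was assigned to a member if it shared 1 base or more with the span of that gene.

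MSI2, a Musashi family protein that controls the stability and translation of messenger RNA, was crosslinked to RNA with ultraviolet light, precipitated with an antibody, and the bound RNA was sequenced (CLIP-seq). The WT group comprised 2 libraries from wild-type mice, and per the labels that material was intestinal crypts, with no doxycycline recorded. The TRE-Msi2 group comprised 2 libraries from mice with a doxycycline-responsive Msi2 transgene, made from total intestinal epithelial cells after 24 h of doxycycline. All 4 libraries were on the C57BL6 background. Genotype, doxycycline and tissue fraction differed together between the groups and cannot be told apart. The labels do not name the promoter that drives the doxycycline-dependent activator, nor how many animals were used.

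The authors deposited 1 peak list per genotype, each pooling 2 libraries, so values are given without replicate error, and differences between the lists were not tested. Peak widths were multiples of a 200-nt bin, except for 3 WT and 9 TRE-Msi2 peaks. Each peak carries the authors' score, a whole number in 99.1% of the WT and 96.7% of the TRE-Msi2 peaks of 1 bin (within 0.005), but in 39.9% and 37.8% of those of 2 bins. What the score counts, and how it was formed for wider peaks, is not stated in the labels or files. The depth of the libraries is unknown, and scores were read only within a list; the 12061 WT peaks had a median score of 19, and the 16939 TRE-Msi2 peaks 24.7. No RNA abundance library was used here, so the amount of a transcript and its binding by MSI2 cannot be told apart. Markers fitted an epithelium, but their counts did not set the crypt fraction apart. In each list 8 of 8 enterocyte genes held a peak, as did 4 of 5 epithelial genes for WT and 5 of 5 for TRE-Msi2. In either list 0 of 5 stromal and 0 of 5 immune genes did. Crypt markers gave 5 of 6 in each list. The enterocyte gene Apob had a top score of 81.4 in the WT list, labelled as crypts, so that list also holds strong peaks of enterocyte transcripts. The highest crypt markers there were Defa24 (97), Lyz1 (74.2) and Olfm4 (57.45), which scored 93, 76.4 and 54.2 in TRE-Msi2. The other crypt markers with a peak, Mki67 and Lgr5, scored 26 and 20 in WT and 37 and 34 in TRE-Msi2.

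Rab, Arf and Arl proteins switch between a GTP-bound form that sits on membranes and recruits effectors and a GDP-bound form that is released. Each marks particular membranes: Arf and Arl proteins recruit coats and tethers at the Golgi, plasma membrane, lysosome and cilium, and Rab proteins steer vesicle budding, transport and fusion between compartments. In the enterocyte the Rab11, Rab8 and Rab14 routes carry membrane proteins from recycling endosomes and the Golgi to the apical brush border, and loss of Rab8a or Rab11a function in the gut is known to misplace apical proteins.

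Of the 85 members, 27 held WT peaks and 35 held TRE-Msi2 peaks. This is 31.8% of members in WT (exact 95% binomial interval 22.1% to 42.8%, counting error only), where 20.3% of all protein-coding genes held a WT peak. In TRE-Msi2 it is 41.2% (30.6% to 52.4%), where 24.9% of all protein-coding genes held a peak. All 27 members with a WT peak also held a TRE-Msi2 peak; genes with peaks in both lists make up 19.1% of all protein-coding genes. The remaining 8 members held TRE-Msi2 peaks only, a class with 5.76% of all genes, and 0 members held WT peaks only, a class with 1.2%. The 27 shared members are all of the WT members and 77.1% of the TRE-Msi2 members. Over all protein-coding genes, 4186 of the 4449 with a WT peak and 4186 of the 5448 with a TRE-Msi2 peak were shared. Among genes with a peak in either list, 77.1% of members and 77.9% of all protein-coding genes held a WT peak, so this overlap is near that of all genes.

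The length of the gene moved with these counts. Median spans were 20.9 kb for the members, 25.5 kb for the 35 with a peak, 14.9 kb for the 50 without, and 17.1 kb for all protein-coding genes. Among members shorter than 10 kb, 2 of 23 held a WT peak and 4 a TRE-Msi2 peak, beside 10.2% and 13.4% of all genes of that length. Between 10 and 30 kb, 16 of 39 (41%) and 19 of 39 (48.7%) did, beside 21% and 26.3%. Between 30 and 100 kb, 8 of 18 and 9 of 18 did, beside 28.7% and 34%. Of the 5 members over 100 kb, 1 held a WT and 3 a TRE-Msi2 peak, beside 34% and 39.6%. The exact intervals of the members of 10 to 30 kb, 25.6% to 57.9% in WT and 32.4% to 65.2% in TRE-Msi2, lie above the shares of all genes of that length, and those of the other classes include them. The intervals cover counting error only, make no allowance for the number of classes or for relatedness of the genes, and are not a test. The part of expression level in these shares was not tested.

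Among the Arf genes, the coat-recruiting GTPases of the Golgi and plasma membrane, 4 of 6 held a peak in each list (66.7%, 22.3% to 95.7%): Arf1, Arf3, Arf4 and Arf6. Among the Rab genes 18 of 59 held a WT peak (30.5%, 19.2% to 43.9%) and 23 a TRE-Msi2 peak (39%, 26.5% to 52.6%). Among the Arl genes, the Arf-like GTPases, 5 of 20 held a WT peak (25%, 8.66% to 49.1%) and 8 a TRE-Msi2 peak (40%, 19.1% to 63.9%). The intervals of the 3 families overlap, so no order among them can be read from these counts. The median of the members' top scores in the WT list was 32.0 for Arf, 25.5 for Rab and 22 for Arl genes; in the TRE-Msi2 list it was 32.3, 33 and 27.8.

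**Figure D1:**
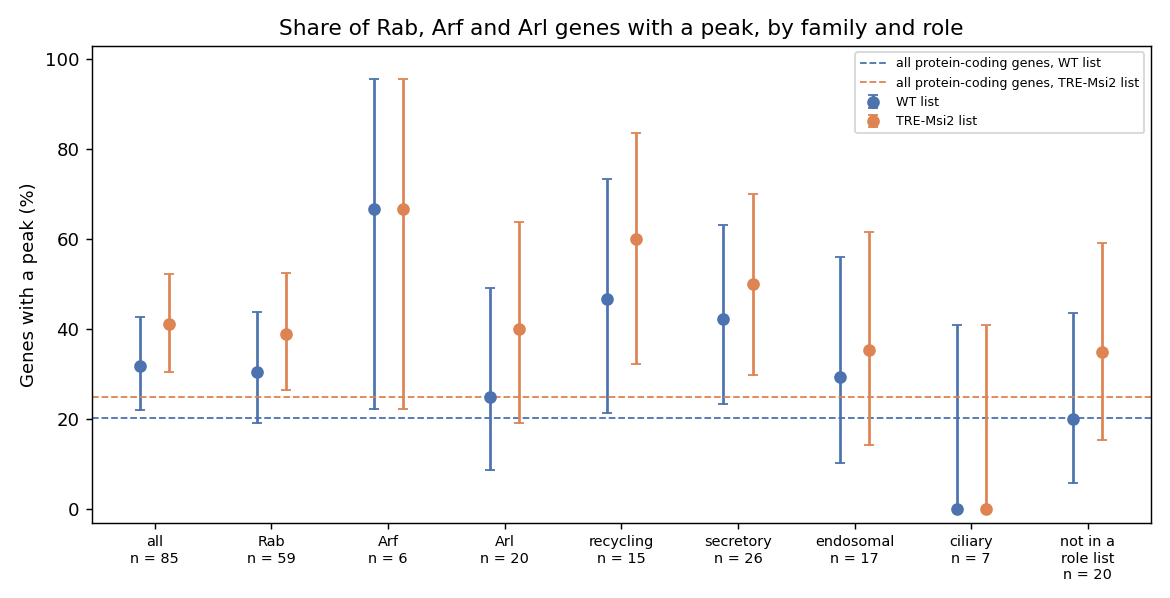
Share of genes with a peak (%) for all members, each family and each role; WT is blue and TRE-Msi2 orange. Points are shares, bars exact 95% binomial intervals that cover counting error only, and dashed lines the shares of all protein-coding genes, 20.3% and 24.9%. The intervals of the families and of the roles overlap, and 0 of 7 ciliary members held a peak.

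Recycling and polarized sorting members, which return or deliver cargo to the cell surface, held peaks in 7 of 15 WT cases (46.7%, 21.3% to 73.4%) and 9 of 15 for TRE-Msi2 (60%, 32.3% to 83.7%). With the higher-scoring 50% of each list, the TRE-Msi2 share was 40%, below the WT share of 46.7% and the secretory TRE-Msi2 share of 50%. Rab8b, a regulator of transport to the plasma membrane, held 1 peak of a single bin at chr9:66845194-66845393, 1.58 kb from the end of the gene, scoring 35 in WT. The TRE-Msi2 list had the same bin at 55. These scores equalled or exceeded 94.9% of the scores in the WT list and 98.2% of those in the TRE-Msi2 list. Its paralog Rab8a, which acts in apical delivery, held 2 WT and 2 TRE-Msi2 peaks; the highest of each list was the same internal bin, with scores of 20 and 24 that lie close to the list medians.

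Arf6, which governs endocytic recycling and cortical actin at the plasma membrane, stood apart in how much of the gene was covered. A single peak spanned 2600 nt in WT and 2800 nt in TRE-Msi2 and covered 67% and 72.2% of the 3.83-kb span, the largest share of any member in either list. Its scores were 32.7 and 46.2. No other member had more than 11% of its span covered in WT (Rab1a).

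Rab11a, the defining GTPase of the recycling endosome, held 3 WT and 5 TRE-Msi2 peaks on chromosome 9. All 3 WT peaks began within 1.09 kb of the gene end, with a top score of 29, and each had a TRE-Msi2 counterpart. The TRE-Msi2 list added internal peaks 11.3 and 12.9 kb from the end, with scores of 33 and 29, and the former was its top score there. Rab11b held 1 WT peak (23), and in TRE-Msi2 the same interval at a score of 23.7 and a further peak (20.5) on the opposite strand. Rab14, which links the Golgi with endosomes, held 4 peaks in each list; its top score in TRE-Msi2 (38) was at chr2:35189881-35190080, where the WT peak scored 16. Rab10, a regulator of basolateral and exocytic transport, held 6 peaks in each list, more than any other member in WT, with top scores of 25 and 33. All 6 of its TRE-Msi2 peaks overlapped a WT peak. The Rab10 peaks nearest the gene end in each list, among them the WT top peak, also lie in the span of Rab10os.

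Rab35, which controls fast recycling, and Rab22a, which sorts cargo from early endosomes, held TRE-Msi2 peaks only. Rab35 held 1 peak with a score of 35, second to Rab3c among the 8 members with TRE-Msi2 peaks only, and Rab22a held 2 peaks of 21 each, near the lowest single-bin score of that list, 20. Recycling members without a peak in either list were Rab4a, Rab4b, Rab13, Rab15, Rab17 and Rab25. The last pair are Rab proteins known for their expression in epithelia.

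Secretory members, from the endoplasmic reticulum to the Golgi and on to exocytosis, held peaks in 11 of 26 WT cases (42.3%, 23.4% to 63.1%) and 13 of 26 for TRE-Msi2 (50%, 29.9% to 70.1%). The ER and Golgi members gave 9 of 18 and 10 of 18; those of regulated exocytosis gave 2 of 8 and 3 of 8. Rab1a, which drives transport from the endoplasmic reticulum to the Golgi, had the highest top score of all members in TRE-Msi2 and shared the highest in WT. It held 5 peaks in each list, every one shared, with a top score of 41 in WT and 56 in TRE-Msi2 at chr11:20218798-20218997, 7.86 kb from the gene end. Nearer the end, a peak of 1600 nt in WT and 1800 nt in TRE-Msi2 had scores of 35.1 and 36. The bin with the top score, and the one 3.66 kb from the end, also lie in the span of Gm51885, so they cannot be assigned to Rab1a alone. Peaks of Rab1a covered 11% of its 25.4-kb span in WT and 11.8% in TRE-Msi2.

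Rab33b, a Golgi and autophagosome GTPase, held a single bin in each list that straddles the end of the gene, at chr3:51496079-51496278, with scores of 41 and 45.5. Arf1, the main recruiter of the COPI coat, had the third highest top score in WT, 35.5. The nearer edges of its 2 WT peaks lay within 0.487 kb of the gene end. A single 1400-nt TRE-Msi2 peak covered both intervals with a score of 30.1. Arf4 held 3 WT and 4 TRE-Msi2 peaks with top scores of 31.3 and 34.4; the highest in WT lay 9.73 kb inside the gene, whereas that of TRE-Msi2 lay across the gene end. Arf3 held 2 peaks in each list (top scores 26 and 25.3). Within their own lists, the top scores of Arf1 stood at the percentiles 95 in WT and 75.8 in TRE-Msi2, and those of Arf3 at 83.8 and 55.3.

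Rab18, a GTPase of lipid droplets and the endoplasmic reticulum, held 3 WT peaks with a top score of 26 and 5 TRE-Msi2 peaks with a top score of 46. Rab2a, a Golgi GTPase, held 4 peaks in each list, and all were shared. Its bin 29 kb from the gene end scored 15 in WT, the lowest single-bin score of that list, and 33 in TRE-Msi2, its highest there. Arl1, which recruits golgin tethers, held 3 WT peaks (top 25.5) and 5 TRE-Msi2 peaks (top 31), and Rab6a, a GTPase of the Golgi, held 2 in each list (top 21.2 and 26). Rab43 held 1 TRE-Msi2 peak of 29 and 0 WT peaks.

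Of the exocytic members, Rab3c, a GTPase of regulated secretory vesicles, had the third highest top score of all members in TRE-Msi2 and 0 WT peaks. Its 3 single-bin peaks scored 53, 21 and 21. The first, at chr13:110059993-110060192, lay on the strand of the gene 5.81 kb from its end, and a further one of them, scoring 21, lay on the opposite strand. Its span of 227 kb is among the longest of the members. Rab27b held 3 peaks in each list (top scores 22 and 31); its strand was not in the tables used here, and its top peak was antisense to the remaining pair. Rab27a held a single peak, antisense to the gene in both lists, with scores of 16 and 25.

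Endosomal members gave 5 of 17 for WT (29.4%, 10.3% to 56%) and 6 of 17 for TRE-Msi2 (35.3%, 14.2% to 61.7%). The early endosomal list gave 3 of 6 and 4 of 6, and the late endosomal and lysosomal list gave 2 of 11 in each list. Rab5c, 1 of 3 Rab5 isoforms that drive early endosome fusion, had the highest top scores of the role, 31 and 42. It held 2 peaks in each list, with their nearer edges within 0.684 kb of the gene end. Rab5a held 2 WT and 4 TRE-Msi2 peaks with top scores of 26.9 and 32, and its 1400-nt peak at the gene end, identical in both lists, also touches the span of Pp2d1. Rab5b held 2 TRE-Msi2 peaks with a top score of 22 and 0 WT peaks. Rab7, the GTPase of late endosomes, held the same 800-nt peak in both lists 0.101 kb from its end, with scores of 29 and 37.5. Rab21 (top scores 26 and 26.8) and the lysosomal GTPase Arl8b (20.5 and 27.5) completed the role. All peaks of Arl8b also lie in the span of Gm35417, and counting only peaks that touch 1 gene span gave a share of 23.5% in WT and 29.4% in TRE-Msi2.

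None of the 7 ciliary and microtubule members held a peak in either list: Arl2, Arl3, Arl6, Arl13a, Arl13b, Rab23 and Rab28. A count of 0 of 7 allows a share of up to 41% (exact interval), so at this number of genes a share equal to the background could not be distinguished. Of 20 members placed in no role list, 4 held a WT and 7 a TRE-Msi2 peak. Arl5a, a Golgi GTPase, held 4 WT and 6 TRE-Msi2 peaks, equal with Rab10 for the most in TRE-Msi2, with modest top scores of 22 and 30. Neither Arl5a nor its paralog Arl5b was in the fixed secretory lists, so the secretory shares leave them out. Arl5b held 2 and 4 peaks (top scores 27 and 28), and Arl4a held 1 and 2 (18 and 29.6). Arl14, a 1.2-kb gene, held 1 TRE-Msi2 peak of 24.

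**Figure D2:**
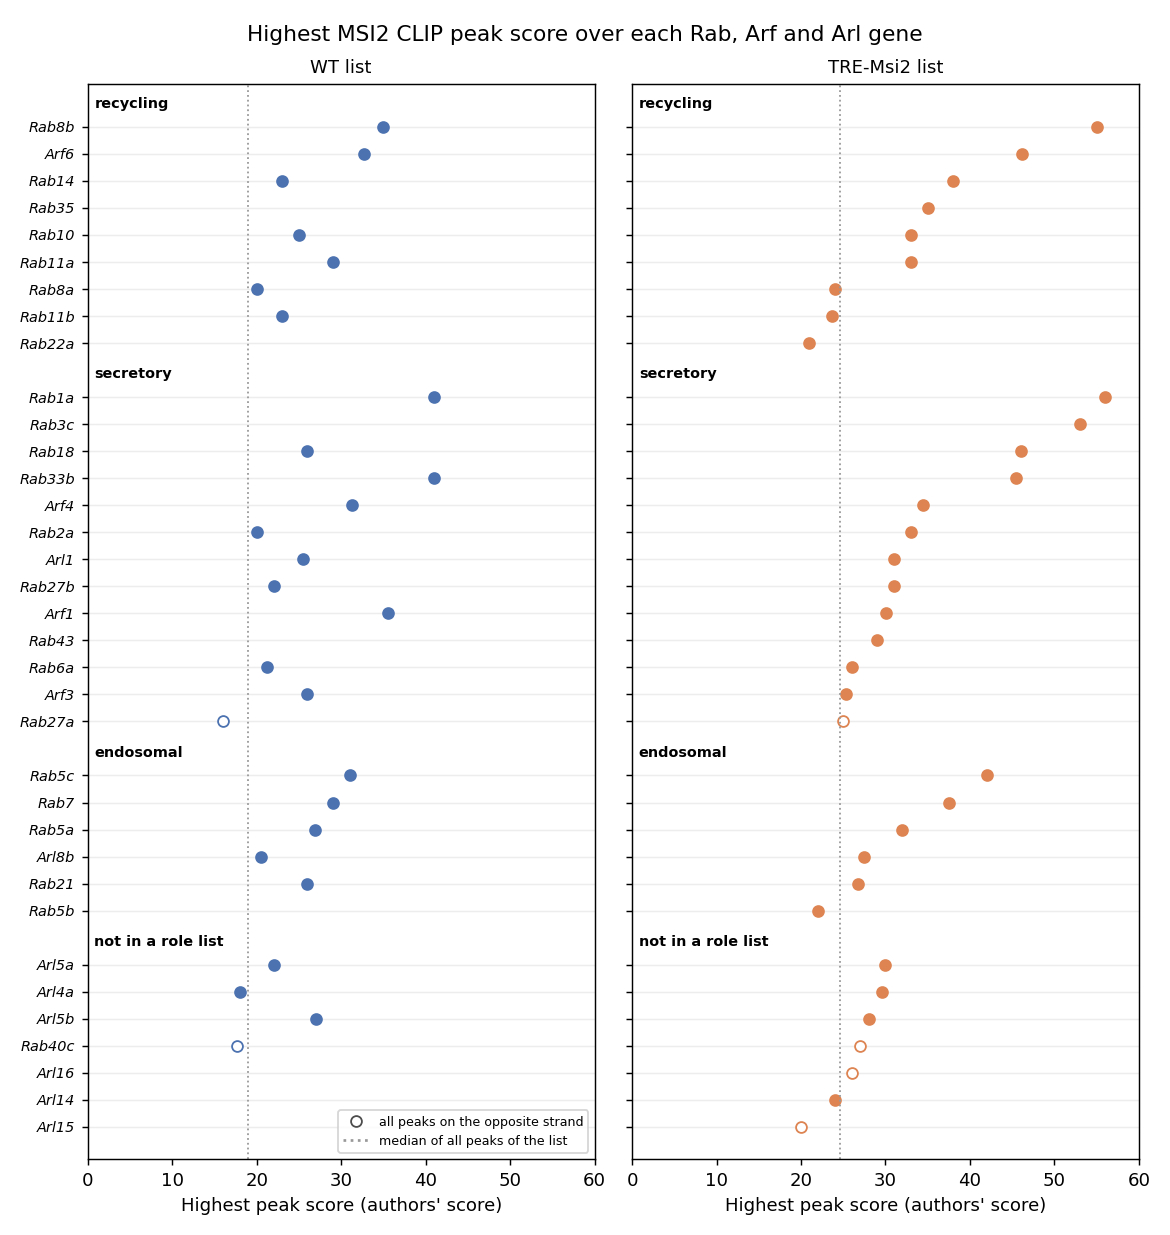
Highest peak score of each of the 35 members with a peak (authors' score), in the WT list (left) and the TRE-Msi2 list (right), ordered by role. Dotted lines mark the median of all peaks of the list, 19 and 24.7, and open circles mark genes whose peaks all lie on the strand opposite to the gene. Rab1a and Rab8b stand farthest right in the TRE-Msi2 panel at 56 and 55, while Rab3c, at 53, has no point in the WT panel.

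Isoforms were grouped by the number in their symbol. Of 18 groups with more than 1 gene of the same number, 4 had a TRE-Msi2 peak on every gene, 10 on some and 4 on none. In 9 of the 10 a single gene held it; no share over other gene groups was computed, so nothing particular to these families is read from it. Rab1a, Rab2a, Rab6a, Rab7, Rab33b and Arl8b held peaks in both lists, whereas Rab1b, Rab2b, Rab6b, Rab7b, Rab33a and Arl8a held 0 in either. Both genes of Rab8 and Rab11 and all 3 Rab5 genes held at least 1 TRE-Msi2 peak. In the 7 groups of 2 genes where 1 held a TRE-Msi2 peak, the gene without one was the shorter in 5 and the longer in 2 (Rab6b and Rab33a). The part of expression level in these differences was not tested.

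The 50 members without a peak in either list also include Arf2, Arf5, Arl4c, Arl4d, Arl5c, Arl9, Arl10, Arl11, Rab3a, Rab3b, Rab3d, Rab9, Rab9b, Rab12, Rab19, Rab20, Rab24, Rab26, Rab29, Rab30, Rab31, Rab32, Rab34, Rab36, Rab37, Rab38, Rab39, Rab39b, Rab40b, Rab42 and Rab44. With spans extended by 1 kb at both ends, an alternative added after seeing the data, Arl5c and Rab13 gained a peak in both lists and Rab24 in TRE-Msi2.

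The member genes held 64 WT and 91 TRE-Msi2 peaks, with a median of 2 per gene with a peak in each list; over all protein-coding genes with a peak the median was 1. The median peak score was 20.8 for members beside 19 for all peaks over protein-coding genes in WT, and 25 beside 25 in TRE-Msi2. Of the WT peaks, 63 of 64 (98.4%, 91.6% to 100%) had a TRE-Msi2 counterpart that shared at least 1 base on the same strand, beside 90.4% of WT peaks over protein-coding genes. The exception was a bin of Rab8a with a score of 16 that straddles the gene end. Of the TRE-Msi2 peaks, 58 of 91 (63.7%, 53% to 73.6%) had a WT counterpart, beside 58.7% over protein-coding genes. The 64 WT peaks lie in 27 genes and the 91 TRE-Msi2 peaks in 35. Intervals on peaks, here and below, treat peaks of the same gene as independent, so they may be too narrow and are not a test. When at least 50% of each peak had to overlap, the WT share was 81.2%, and with single-bin peaks alone it was 54.8%.

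The 33 TRE-Msi2 peaks without a WT counterpart were mostly weak and narrow. Their median score was 22, beside 29 for the 58 shared ones, and 2 of 33 (6.06%) were wider than 1 bin, beside 33 of 58 (56.9%). The same split held over all protein-coding genes, with median scores of 22 and 28 and wider peaks in 15.2% and 52.3%. Of the 33, 21 lay in 13 members that also held WT peaks and 12 in the 8 members without. The top scores of those 8 ran from 20 to 53 with a median of 25, beside a range of 23.7 to 56 and a median of 31 for the 27 shared members. Only 4 of the 8 exceeded the list median of 24.7 (Rab3c, Rab35, Rab43 and Arl16), beside 25 of the 27. Arl16 and Arl15 (score 20) each held a single antisense peak. Single-bin scores started at 15 for WT and 20 for TRE-Msi2, and the part of these floors and of depth in the missing WT peaks was not tested.

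Member peaks gathered near the 3' ends of the genes, as did peaks over all protein-coding genes. In WT 41 of 64 (64.1%, 51.1% to 75.7%) had their midpoint in the last 10% of the span, beside 51.9% of peaks over all protein-coding genes. In TRE-Msi2 48 of 91 (52.7%, 42% to 63.3%) did, beside 47% over all. The member interval of each list includes the share over all genes. The first 10% held 1 member peak in each list (1.56% and 1.1%), beside 4.42% and 4.2% over all. In each list it was the Rab27b peak at 2.29% of the span, placed by the direction of its reads, as the gene strand was not known. The remaining Rab27b peaks lie close by on the other strand, and the same rule put them at 96.7% and 96.4%. Which end of Rab27b these peaks lie at is not settled, and the counts at both ends depend on this rule. None of the 64 WT and 91 TRE-Msi2 member peaks touched a RefSeq promoter window, beside 0.829% and 0.932% over all. In members of at least 10 kb, 33 of 62 WT peaks (53.2%) and 39 of 86 TRE-Msi2 peaks (45.3%) lay in the last 2 kb, beside 41.8% and 36.5% over all genes of that length. TRE-Msi2 peaks with a WT counterpart lay in the last 10% for 36 of 58 (62.1%, 48.4% to 74.5%). Of the TRE-Msi2 peaks with no counterpart, 12 of 33 did (36.4%, 20.4% to 54.9%). Over all genes these shares were 52.4% and 39.4%. Gene spans include introns, and the part of spliced RNA, whose last exon is often long, in these shares was not tested.

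The peak with the highest score was not always in the same place in both lists. Among the 27 shared members, the top peaks of the 2 lists overlapped in 15 (55.6%), beside 73.5% of the 4186 protein-coding genes with peaks in both. A gene with 1 peak per list leaves little room for a differing top. Of members with a peak, 29.6% in WT and 34.3% in TRE-Msi2 held 1, beside 58.9% and 53.7% of protein-coding genes with a peak. The part of peak number in these shares was not tested. In 12 members the tops did not overlap. There the TRE-Msi2 top lay farther from the gene end in 7 and nearer in 5, beside 65% farther over all genes. Rab11a, Rab14, Rab10, Rab2a and Rab5a are examples of the former. In Rab10 the top lay 0.373 kb from the end in WT and 5.17 kb in TRE-Msi2, and in Rab5a 0.003 kb and 23.6 kb. The WT tops of Rab10 and Rab5a also touch the spans of Rab10os and Pp2d1. Of the 25 shared members of at least 10 kb, 16 (64%) had their WT top and 10 (40%) their TRE-Msi2 top in the last 2 kb, beside 54% and 48.5% of all such genes. How the score depends on peak width is not known, and 35 of 91 TRE-Msi2 and 22 of 64 WT member peaks were wider than 1 bin.

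**Figure D3:**
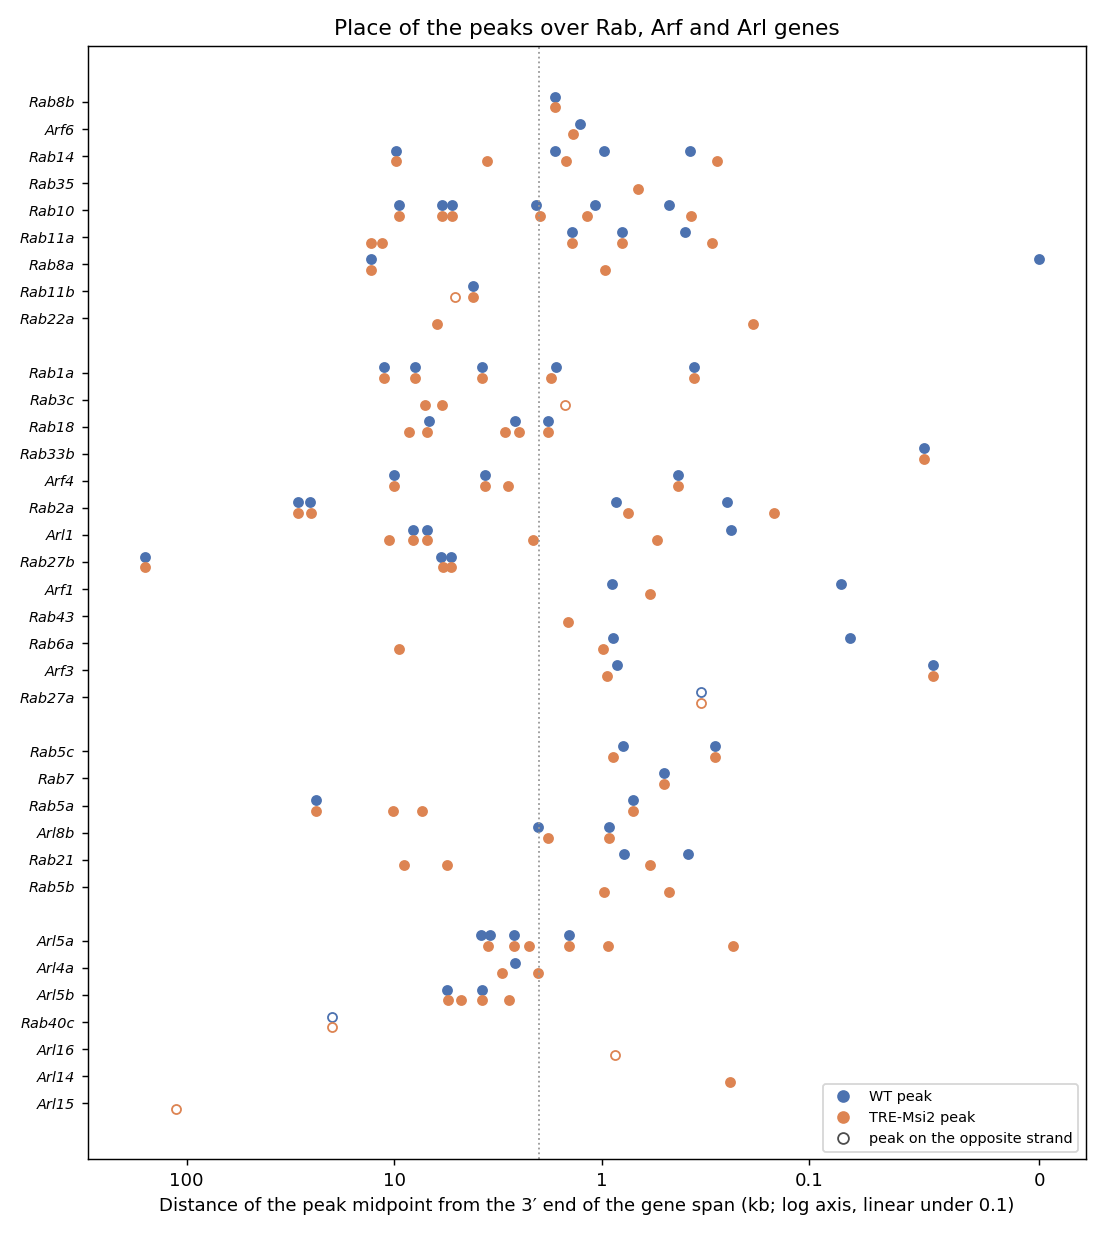
Distance of each member peak's midpoint from the 3' end of its gene span (kb, logarithmic axis that is linear under 0.1 kb), for WT peaks (blue) and TRE-Msi2 peaks (orange), ordered as in the plot of top scores. Open circles are peaks on the strand opposite to the gene, the dotted line marks 2 kb, and where the strand of the gene is unknown (Rab2a, Rab18, Rab27b, Arf6, Arl8b) the direction of the reads was used. Distance grows to the left; the 3 blue points of Rab11a lie right of the dotted line, while 2 of its 5 orange points lie left of 10 kb.

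Strand could be checked for 30 of the 35 members with a peak. Of their peaks, 49 of 51 from WT (96.1%, 86.5% to 99.5%) and 70 of 76 from TRE-Msi2 (92.1%, 83.6% to 97%) lay on the strand of the gene, beside 82.4% and 84.2% of peaks over all protein-coding genes with a known strand. The exceptions in WT were the lone peaks of Rab27a and Rab40c. In TRE-Msi2 they were those 2, the lone peaks of Arl15 and Arl16, and 1 peak each of Rab11b and Rab3c. The peak of Rab40c (17.7 and 27) lies over Cox7c-ps1, a pseudogene within its span. Counting only peaks on the strand of the gene left 25 members in WT and 31 in TRE-Msi2, with 17.3% and 21.3% of all protein-coding genes counted in the same way.

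Genes for regulators and effectors of these GTPases held peaks in a similar share, counted on either strand. Genes whose every peak was antisense are included, and no count by gene strand was made for these lists. Over 8 lists of 197 genes, 62 (31.5%) held a WT and 75 (38.1%) a TRE-Msi2 peak, beside the 20.3% and 24.9% of all genes. Their median span, 47.2 kb, is well above that of the members, and 28.7% and 34% of all genes of 30 to 100 kb held a peak. Among chaperones and prenylation enzymes 5 of 11 and 7 of 11 did, led by Gdi2, a dissociation inhibitor that extracts Rab proteins from membranes (top scores 23 and 47), and Rabggtb, a subunit of the enzyme that attaches their lipid anchor (23 and 36). The lone peak of Rabggta (19.5 and 31.5) was on the opposite strand.

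Of 39 exchange factors for Rab proteins, which load GTP, 13 held a WT and 14 a TRE-Msi2 peak. The highest top scores were in Dennd4c (29), Madd (27) and Dennd5b (23) in WT, and in Dennd5b (42.5), Ccz1 (36) and Trappc10 (36) in TRE-Msi2. Rab GTPase-activating proteins gave 10 of 36 and 12 of 36. In 3 of these genes, Sgsm2 (31), Tbc1d22a (23) and Tbc1d24 (23), which led the WT list, every WT peak was antisense. In TRE-Msi2 the leaders were Tbc1d22a (39), Tbc1d24 (35.5) and Tbc1d23 (35), with 3 of 4 peaks of Tbc1d22a and both of Tbc1d24 again on the opposite strand. The only peak of Tbc1d23 also touched another gene span.

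Effectors of recycling and the exocyst gave 8 of 30 and 11 of 30. They were led in WT by the myosin gene Myo5c (29.5), Exoc6 (25, with its peaks on the opposite strand) and Sytl2 (24), and in TRE-Msi2 by Ehd1 (48), Myo5c (42.5) and the Rab11 effector gene Rab11fip1 (32.3). Myo5b, the motor that carries Rab11a vesicles in enterocytes, held 4 WT and 5 TRE-Msi2 peaks with top scores of 17 and 25.7; it was named for this role, after its values were seen. Effectors at the Golgi and late endosome gave 4 of 19 and 6 of 19, led in both lists by the tethers Gcc2 (35 and 43) and Uso1 (31 and 41) and by Plin3 (19.2 and 37).

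Of 16 Arf exchange factors, 6 held a WT and 5 a TRE-Msi2 peak. Arfgef1, which activates Arf proteins at the Golgi, held 11 WT and 21 TRE-Msi2 peaks with top scores of 27 and 46, followed by Arfgef2 (24 and 41) and Iqsec3 (24 and 35). In Arfgef2, 3 of 4 peaks were antisense in WT, as were 2 of 4 in TRE-Msi2. Arf GTPase-activating proteins gave 6 of 26 and 10 of 26, led in WT by Acap2 (29), Agfg1 (29) and Smap1 (26) and in TRE-Msi2 by Acap2 (41), Arfgap3 (40) and Agfg1 (39). The only peak of Smap1 also touched another gene span. Acap2 is a GTPase-activating protein for Arf6. The list of effectors and partners of Arf and Arl proteins also holds Sar1a and Sar1b, which encode related GTPases rather than effectors. It gave the same 10 of 20 genes in each list, with Sar1a and Sar1b among the 10. Golga4, a golgin that binds Arl1, led in WT (28) with Arl6ip1 (27.3) and Arfip1 (27), and Arl6ip1 (46.4), Golga4 (44) and Gga2 (39, its only peak on the opposite strand) in TRE-Msi2.

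**Figure D4:**
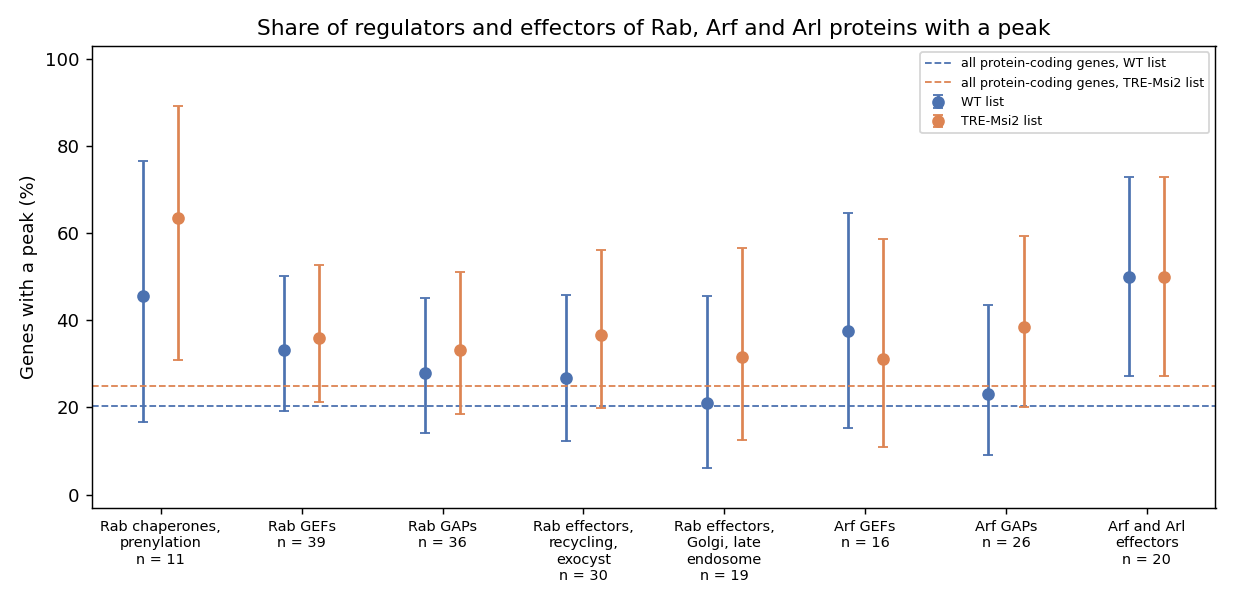
Share of genes with a peak (%) in 8 lists of regulators and effectors of Rab, Arf and Arl proteins, in the WT list (blue) and the TRE-Msi2 list (orange), with exact 95% binomial intervals. Dashed lines mark all protein-coding genes, 20.3% and 24.9%. The highest shares are 63.6% of the 11 chaperone and prenylation genes in TRE-Msi2 and 50% of the 20 genes listed as Arf and Arl effectors in both lists. That list includes the GTPase genes Sar1a and Sar1b.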

How the data were processed

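CLIP-seq peaks were analysed from 2 deposited lists, 1 per genotype, each pooling 2 libraries. Per the submitters' processing notes, cutadapt and TopHat were used and the builds mm9 and mm10 are named; their versions: not given in the sources used here. Both deposited file names name Piranha, merged samples and duplicate removal. The value used was the score that the authors deposited for each peak, with its making for wide peaks not stated; the p-value joined to it was not used. Coordinates fit mm10 and are given from 1.

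Peaks were joined to gene spans of RefSeq GRCm38.p6 (1 base or more, either strand) with Python 3.11.15, pandas 2.3.3 and SciPy 1.17.1. Gene strand came from the RefSeq promoter table and was known for 70 of 85 members and 17492 of 21900 protein-coding genes. Overlap between lists required 1 base on the same strand. Shares have exact Clopper-Pearson 95% intervals, and those of peaks make no allowance for peaks that lie in the same gene. The overlap code was tested on simulated data. Percentiles count the peaks of a list at or below a score.

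Named members were the 10 with the highest top scores and the 10 with the most peaks in each list, those in a single list, and the 4 with the highest TRE-Msi2 scores in each role; for each list of regulators, the 3 with the highest scores. The planned pairs by protein identity were replaced by isoforms of the same number. Members and lists were chosen with earlier results of these data known. With 1 pooled list per genotype there was no test. No sequence of a peak is printed, as no genome was used here.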

Additional observations from a re-analysis of the deposited data

How the results depend on the processing

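Alternatives changed 1 choice at a time: overlap of the peak with the span, peaks touching 1 gene span, gene strand, score thresholds, list length, and single-bin peaks. Of 105 recomputed values over 23 results, 95 stayed within 1.5 times the count, or within the interval of the share or median, and 10 moved; extension of the spans by 1 kb was added after seeing the data. Where only the higher-scoring 50% of peaks entered, 2 members (Rab8a and Rab11b) held WT peaks only, beside 1.91% of all protein-coding genes. In that setting 66.7% of WT and 52.2% of TRE-Msi2 member peaks were shared, with median scores of 25 and 31. The share of WT member peaks with a TRE-Msi2 counterpart was 81.2% when 50% of each peak had to overlap and 76.6% when the TRE-Msi2 list was cut to as many peaks as the WT list. With single-bin peaks alone it was 54.8%, that of TRE-Msi2 peaks was 41.1%, and 39.3% of TRE-Msi2 peaks lay in the last 10% of the span. The score, length and single-bin settings leave fewer peaks by construction, and a 50% overlap is a stricter rule. Members with a peak numbered 24 to 29 in WT and 29 to 38 in TRE-Msi2 over all alternatives. The share of all protein-coding genes moved as well, from 12.3% to 21.5% in WT and from 16.6% to 26.4% in TRE-Msi2. No paired analysis was possible because each list pools its libraries, and for the same reason no library could be left out. Unknown depth limits every absence of a peak.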
